A study of Mus musculus with 8 samples.

Results

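A set of 8 liver transcripts of angiopoietin-like proteins, lipoprotein lipases and their helper proteins was examined: the angiopoietin-like genes Angptl4, Angptl6 and Angptl8, the lipases Lpl, Lipc and Lipg, the lipase maturation factor Lmf1 and the lipase anchor Gpihbp1. They were chosen from the 55487 genes counted by their known roles. They were also selected on the measured control against Mc1r LKO differences of these same livers, which were already known. Those differences are therefore given as a description, and where a count of calls includes these genes it is not a test of them. All 8 were among the 13400 genes that passed the filter on low counts.

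Triglyceride-rich lipoproteins are hydrolysed in capillaries by lipoprotein lipase, which is folded in the endoplasmic reticulum with the help of LMF1 and carried to the capillary wall by GPIHBP1. Hepatic lipase, encoded by Lipc, and endothelial lipase, encoded by Lipg, act on remnants and on high-density lipoproteins. ANGPTL4 and ANGPTL8 are secreted regulators of lipoprotein lipase. The liver is a main source of ANGPTL8.

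RNA from whole liver was sequenced in male mice fed Western diet for 12 weeks from 8 weeks of age. The paper states that the mice were killed after fasting for 4 hours. The 4 control mice, numbered 154, 159, 181 and 193, carried floxed Mc1r alleles (Mc1r fl/fl) without Cre. The 4 Mc1r LKO mice, numbered 141, 156, 157 and 182, carried the same floxed alleles together with Alb-Cre, in which the albumin promoter drives Cre recombinase in hepatocytes. Mc1r encodes the melanocortin 1 receptor, and the comparison asks how its loss from hepatocytes alters the liver transcriptome.

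Libraries held 10773151 to 24763375 counted read pairs, and 3 counts in a library corresponded to 0.121 to 0.278 CPM, the count scaled to a library of fixed size. Mc1r had 0 counts in all 8 libraries, which allows up to 3 counts in each, so its counts could not check the genotype labels. The 6 hepatocyte markers summed to between 66891 and 100438 CPM, as fits the tissue on the labels. Mouse 182 stood apart: it had the highest hepatocyte sum and the lowest sum of the 8 mice for endothelial, macrophage, adipocyte, stellate and lymphocyte markers. Values without it are given beside each of the 8 genes. In whole liver, fewer cells of a type and less RNA per cell cannot be told apart.

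Across all genes no transcript passed an adjusted p of 0.05 in edgeR's quasi-likelihood test (0% of 13400), while 901 genes had an unadjusted p under 0.05. The DESeq2 Wald test called 17 of the same 13400 genes after adjustment. The looser rule used below, the unadjusted threshold, asked for an unadjusted p under 0.05 and a log2 fold change of 0.25 or more in size, and 711 genes (5.31%) met it, of which 354 (2.64%) were higher and 357 (2.66%) lower in Mc1r LKO. Of the calls, 49.8% were in the direction higher in Mc1r LKO with TMM scaling, and 25.3% were with library size alone. Against this background, 0 of the 8 genes passed the adjusted threshold with edgeR and 0 with limma-voom, whereas 1, Angptl4, was among the 17 calls of DESeq2. Angptl4 was also the 1 gene of the 8 past the unadjusted threshold with edgeR. It was further the 1 gene of the 8 whose genotypes did not overlap, beside 4.16% of all genes in either direction and 2.63% in the higher direction. Because these values were known when the genes were chosen, nothing is read from those counts.

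Angptl4, whose product inactivates lipoprotein lipase, was higher in every Mc1r LKO liver than in any control liver. It lies on chromosome 17 (33773750-33781830, minus strand, GRCm38). The control mice had 126, 94.8, 88.8 and 129 CPM in mice 154, 159, 181 and 193, and the Mc1r LKO mice had 170, 172, 184 and 173 CPM in mice 141, 156, 157 and 182. The controls fell into a higher and a lower pair, whereas the knockout livers lay close together. The means were 110 ± 20.7 CPM (SD, n = 4) in controls and 175 ± 6.42 CPM (n = 4) in Mc1r LKO, a coefficient of variation of 18.9% against 3.67%. The log2 fold change was 0.67 ± 0.13 (SE), or 1.59-fold, and the lowest knockout value was 1.32 times the highest control value. Leaving out each mouse in turn gave 0.58 to 0.76, and 0.68 without mouse 182. A larger absolute log2 fold change was found in 4.03% of all genes tested.

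Angptl8 encodes a feeding-induced secreted regulator of lipoprotein lipase and lies on chromosome 9 (21835510-21837347, plus strand), inside the span of Dock6 on the opposite strand, from which it was separated by strand-specific counting. Its levels were 33.6, 25.1, 45.5 and 37.9 CPM in controls 154, 159, 181 and 193. In Mc1r LKO mice 141, 156, 157 and 182 they were 40.1, 37.8, 27.1 and 68.6 CPM. The genotypes overlapped, and mouse 182 alone exceeded the highest control. The log2 fold change was 0.28 ± 0.27 (SE) with all mice and -0.03 without mouse 182, so its direction rested on that mouse, and it was 0.47 without mouse 157.

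Angptl6, which encodes a hepatocyte-secreted protein linked to energy expenditure and is not an established lipase inhibitor, lies 956 kb from Angptl8 on the same chromosome. Control levels were 12.9, 16.6, 12.5 and 18.3 CPM in mice 154, 159, 181 and 193, and Mc1r LKO levels were 17.8, 18.9, 17.98 and 15.1 CPM in mice 141, 156, 157 and 182. Mouse 156 was the 1 knockout above the highest control, so the genotypes overlapped. For Angptl6 the log2 fold change was 0.21 ± 0.14 (SE), and 0.28 without mouse 182. Leaving out 1 mouse gave 0.13 without control 181 to 0.33 without control 193.

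**Figure D1:**
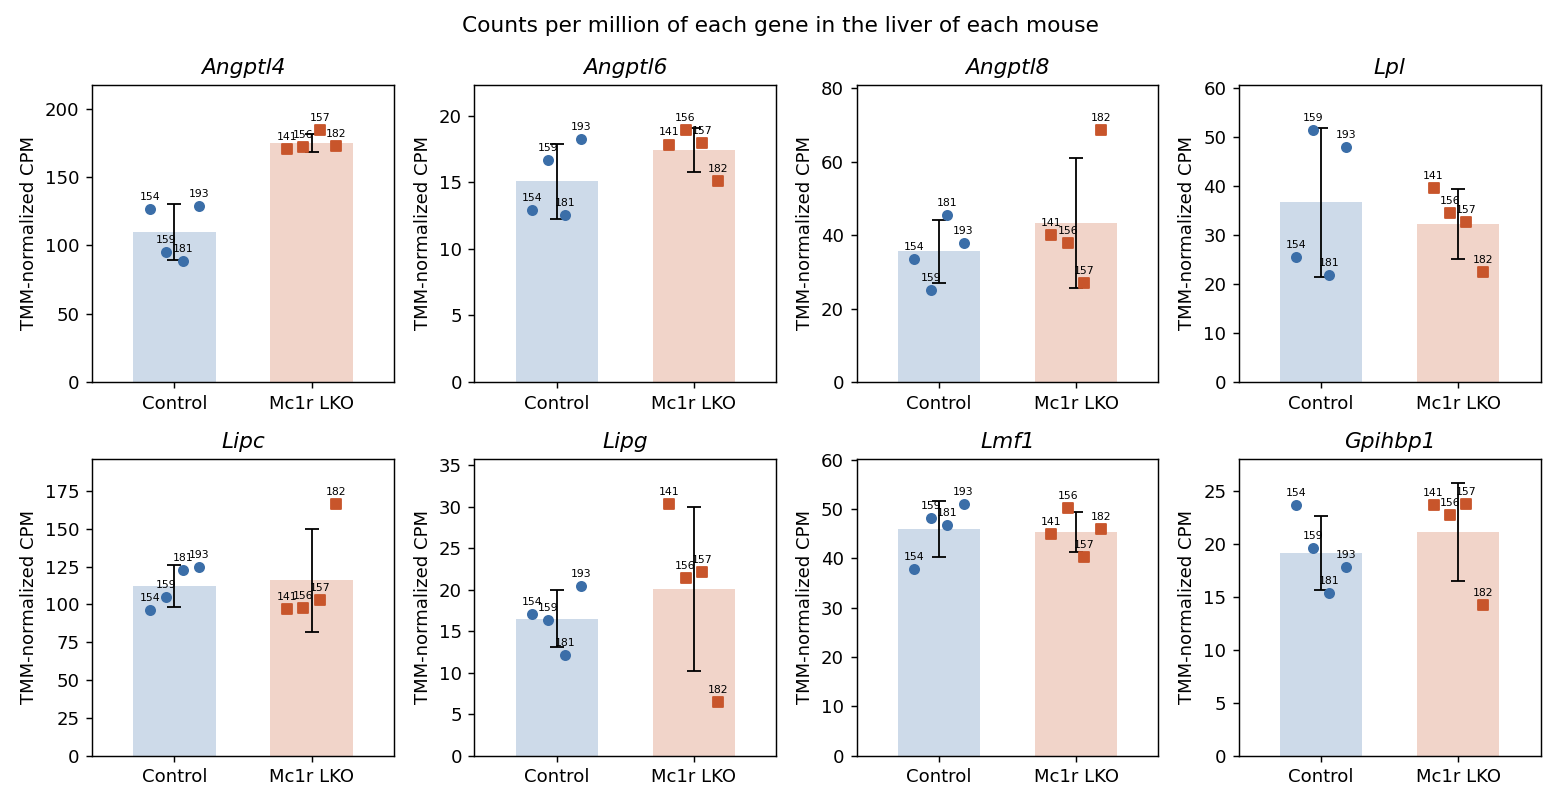
TMM-normalized CPM (vertical axes, each from 0) of the 8 genes in the 4 Control mice (circles) and 4 Mc1r LKO mice (squares), with mouse numbers, means as bars and SD as error bars. Angptl4 is the gene whose genotypes are separate, with Mc1r LKO values of 170 to 184 CPM above control values of 88.8 to 129 CPM, and mouse 182 is the extreme knockout for Angptl8, Lipc, Lipg and Gpihbp1.

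Lpl, the gene of lipoprotein lipase, is known as a transcript of muscle, fat and macrophages more than of adult hepatocytes. Controls 154, 159, 181 and 193 had 25.5, 51.4, 21.8 and 48.1 CPM. Mc1r LKO mice 141, 156, 157 and 182 had 39.5, 34.5, 32.7 and 22.4 CPM, all within the control range. With all mice the log2 fold change was -0.18 ± 0.28 (SE), and it was -0.03 without mouse 182, 0.02 without control 159 and -0.36 without control 181.

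Lipc, the gene of hepatic lipase, had 96.3, 105, 123 and 124 CPM in controls 154, 159, 181 and 193. The Mc1r LKO mice had 96.9, 97.4, 103 and 166 CPM in mice 141, 156, 157 and 182. Mouse 182 lay above every other mouse, and the other 3 knockouts lay within the control range. Its log2 fold change of 0.05 ± 0.18 (SE) with all mice became -0.18 without mouse 182 and -0.01 when scaled by library size alone.

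Lipg, the gene of endothelial lipase, had 17.1, 16.4, 12.1 and 20.5 CPM in controls 154, 159, 181 and 193. Knockouts 141, 156, 157 and 182 had 30.4, 21.4, 22.1 and 6.49 CPM. The other 3 knockouts, 141, 156 and 157, were above the highest control and mouse 182 was below the lowest, so both extremes of the 8 mice were knockouts. Lipg had a log2 fold change of 0.28 ± 0.36 (SE), 0.58 without mouse 182 and 0.02 without mouse 141.

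Lmf1, required for the folding of all 3 of these lipases, was the steadiest of the 8 genes. Controls 154, 159, 181 and 193 had 37.9, 48.3, 46.7 and 51.0 CPM, and knockouts 141, 156, 157 and 182 had 44.9, 50.2, 40.3 and 45.9 CPM. All knockouts lay within the control range. The log2 fold change was -0.02 ± 0.11 (SE), and -0.02 without mouse 182. Its SD within genotype was 0.16 on the log2 scale, against 0.20 for Angptl4 and 0.72 for Lipg.

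Gpihbp1, which encodes the endothelial anchor of lipoprotein lipase, had 23.7, 19.6, 15.4 and 17.8 CPM in controls 154, 159, 181 and 193. Knockouts 141, 156, 157 and 182 had 23.6, 22.7, 23.8 and 14.2 CPM. The other 3 knockouts were near the highest control and mouse 182 was below every control. For Gpihbp1 the log2 fold change was 0.14 ± 0.18 (SE), and leaving out 1 mouse gave 0.05 without control 181 to 0.30 without mouse 182.

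Of the 8 log2 fold changes, 6 were positive and 2 negative, with a median of 0.18 beside -0.01 over all genes tested. Angptl4, Angptl6, Lipg and Gpihbp1 kept a positive value under all 15 alternative settings. For Lipg that value fell to 0.06 with limma-voom and to 0.02 without mouse 141. Angptl8 and Lpl changed sign under 1 setting each, and Lipc and Lmf1 under 3 each.

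**Figure D2:**
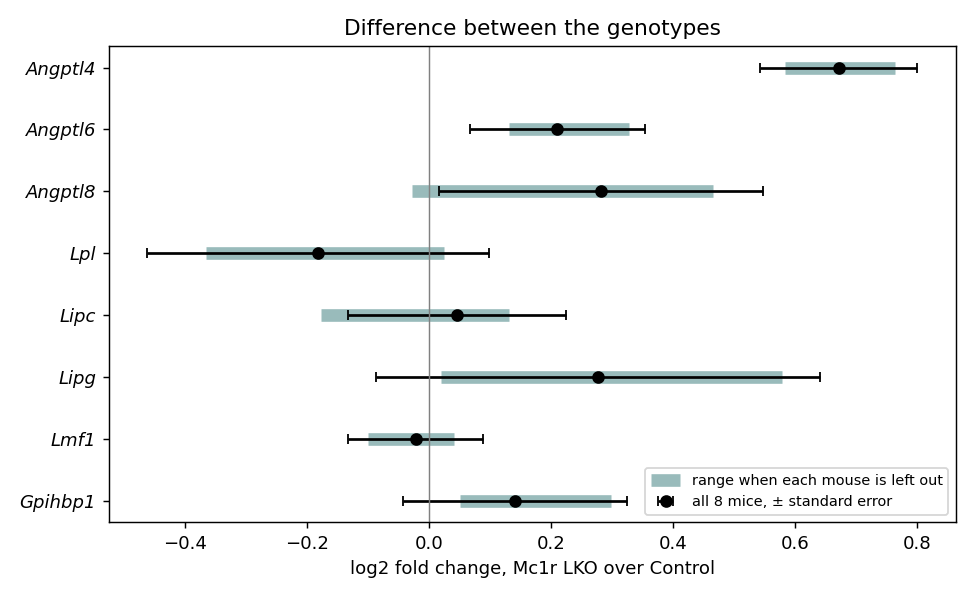
Log2 fold change of Mc1r LKO over Control (horizontal axis) for the 8 genes, with points and SE bars from all 8 mice and a thick band for the range when each mouse is left out. The band for Angptl4 runs from 0.58 to 0.76, whereas those for Angptl8, Lpl, Lipc and Lmf1 include 0.

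Levels of different genes were compared per kilobase of exon, over all 8 mice. The divisor was the length of all annotated exons of a gene together, from 0.865 kb for Angptl8 to 10.5 kb for Lpl and 13.6 kb for Lmf1. Lipc was highest at 53.1 ± 11.2 CPM per kilobase (SD, n = 8), followed by Angptl8 at 45.6 ± 15.7 and Angptl4 at 40.1 ± 10.6. Angptl6 had 10.3 ± 1.57 and Gpihbp1 7.87 ± 1.54 CPM per kilobase. Lipg at 3.88 ± 1.52, Lmf1 at 3.36 ± 0.337 and Lpl at 3.29 ± 1.07 were lowest. That rank depends on the annotated lengths. In plain CPM, Lmf1 and Lpl had control means of 46.0 and 36.7, above Gpihbp1 (19.1), Lipg (16.5) and Angptl6 (15.1). Hepatic lipase transcript was the most abundant of the lipases in these livers by either measure. Per kilobase, Lipc was above 94.0% of the genes tested and Lpl above 52.4% of them.

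Neighbours in that order, which was itself read from these mice, were compared by a two-sided exact sign-flip permutation test, with p-values adjusted over 7 pairs. Angptl4 exceeded Angptl6 by 1.92 ± 0.34 (SD) on the log2 per-kilobase scale in 8 of 8 mice (exact permutation adjusted p = 0.0273). Gpihbp1 exceeded Lipg by 1.11 ± 0.45 in 8 of 8 mice (exact permutation adjusted p = 0.0273), and Angptl6 exceeded Gpihbp1 by 0.40 ± 0.29 in 7 of 8 mice (exact permutation adjusted p = 0.0365). The differences of Lipc over Angptl8 and of Angptl8 over Angptl4 did not pass after adjustment (exact permutation adjusted p = 0.0684 and 0.525). Before adjustment, Lipc over Angptl8 had an exact permutation p of 0.039. Those of Lipg over Lmf1 and of Lmf1 over Lpl did not pass either (exact permutation adjusted p = 0.719 and 0.674). With 7 mice the smallest p the test allows is larger: the 3 differences still passed without control 154 and did not pass without any 1 of the other mice, while each kept its direction. The annotated length of a gene enters all 8 mice alike, so these tests compare per-kilobase values and not numbers of transcripts.

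**Figure D3:**
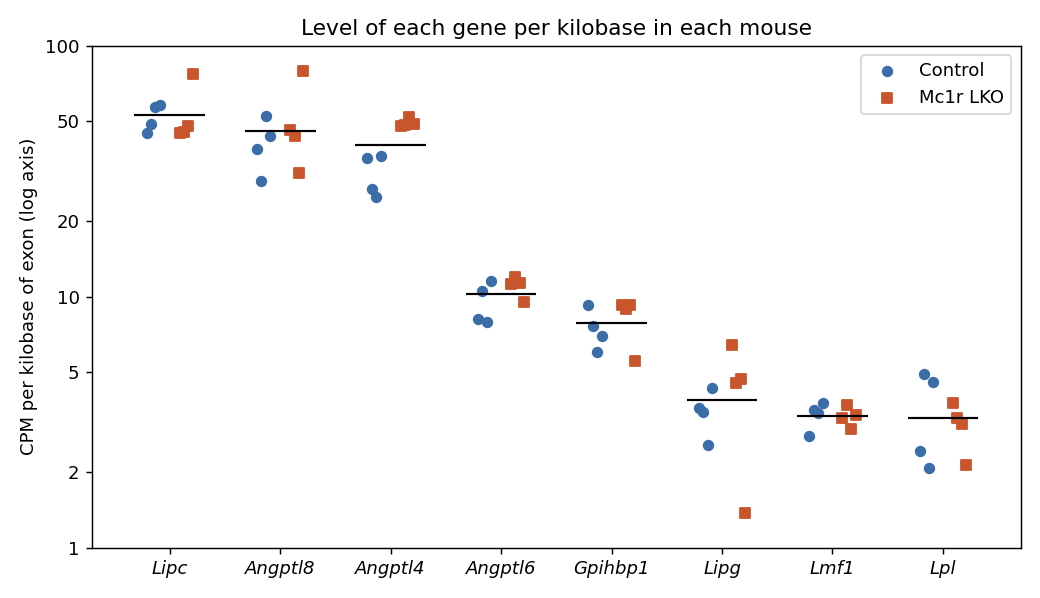
CPM per kilobase of exon (vertical log axis) of each gene in the 4 Control mice (circles) and 4 Mc1r LKO mice (squares), with a line at the mean of the 8 mice. Lipc, Angptl8 and Angptl4 lie together at means of 40.1 to 53.1, Angptl6 and Gpihbp1 at 10.3 and 7.87, and Lipg, Lmf1 and Lpl at 3.29 to 3.88.

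Lipc, the highest of the 8 per kilobase, is shown with the DNA around 1 of its 2 starts as RefSeq gives them on GRCm38.p6, 250 bases before and 50 after the start, on the minus strand of chr9:70952172-70952471. Capitals mark CCAAT boxes (letters CCAAT, on either strand), found by searching 5 motifs on both strands:

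Lipc promoter: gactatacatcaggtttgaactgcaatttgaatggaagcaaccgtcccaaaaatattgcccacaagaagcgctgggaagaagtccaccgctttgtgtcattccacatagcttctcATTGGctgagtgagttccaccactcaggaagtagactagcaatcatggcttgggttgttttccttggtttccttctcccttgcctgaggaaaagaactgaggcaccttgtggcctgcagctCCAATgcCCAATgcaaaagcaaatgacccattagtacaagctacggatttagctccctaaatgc

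The box on the opposite strand began 135 bases before the start, and the pair on the gene's strand began 14 and 7 bases before it. CCAAT was present in 37.4% of 32851 promoter windows of the same length. The letters CACGTG (E-box, 7.15% of windows), GTTAAT (HNF1-type site, 7.10%), AGGTCA (nuclear receptor-type site, 16.3%) and AGAACA (glucocorticoid receptor-type site, 19.0%) were not in this window. A second Lipc start in the same table, with its window at chr9:70934759-70935058, held a CCAAT box beginning 177 bases before the start and AGGTCA on either strand at 88 and 76 bases before it. None of the 5 motifs was in the windows of Angptl6, Angptl8 and Lmf1. A match or its absence is a property of the letters and says nothing of a factor.

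The differences among mice of 1 genotype were next set against cell type markers and target genes, since these do not use the genotype contrast. Each value was centred on its genotype mean, and 7 relations over 8 mice were tested by two-sided exact permutation within genotype. Gpihbp1 followed the mean of 8 endothelial markers (Pearson r = 0.95, Spearman rho = 0.90, exact permutation p = 0.0035 and 0.0069, adjusted p = 0.0243 and 0.0486). Without mice 181 and 182, the farthest from the median, r was 0.65. Lipg followed the same markers (r = 0.96, rho = 0.83, exact permutation p = 0.0156 and 0.0434, adjusted p = 0.0273 and 0.100), but r was 0.46 without those mice, so the relation rested on them.

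Lpl followed the mean of 10 macrophage markers (r = 0.87, rho = 0.79, exact permutation p = 0.0104 and 0.0417, adjusted p = 0.0243 and 0.100), with r = 0.77 without mice 181 and 182. Lpl also followed the 3 detected markers of the adipocyte list, Cfd, Fabp4 and Cidea (r = 0.72, rho = 0.67, exact permutation p = 0.0087 and 0.0573, adjusted p = 0.0243 and 0.100), with r = 0.72 without mice 181 and 182. The defining adipocyte transcripts were at or near 0: Lep had no counts in any mouse, and Adipoq, Plin1 and Retn reached at most 0.353, 0.278 and 0.252 CPM. Control 181 and knockout 182 held the lowest macrophage and endothelial marker sums and the lowest Lpl, Lipg and Gpihbp1 of their genotypes. Leaving out 1 mouse, which also raises the smallest p possible, brought the exact permutation adjusted p to between 0.0608 and 0.170 for Gpihbp1 without 154, 159, 181 or 182, for both Lpl relations without any control or 182, and for Lipg without any mouse other than 193. Without mouse 182 the 4 values of r were 0.79 to 0.88.

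No relation of Angptl4 to the list scores it was set against passed. Its centred log2 values spanned -0.28 to 0.25 in controls and -0.04 to 0.08 in knockouts, so the controls weighed most. With 16 glucocorticoid-induced genes r was 0.09 and rho 0.17 (exact permutation p = 0.769 and 0.653, adjusted p = 0.769 and 0.660), and r was -0.04 without mice 157 and 181. Leaving out 1 mouse gave r from -0.29 without control 193 to 0.33 without knockout 157. With 18 PPAR-alpha targets r was 0.30 and rho 0.17 (exact permutation p = 0.472 and 0.660, adjusted p = 0.644 and 0.660), turning to -0.39 without mice 154 and 157. For these targets, r ran from -0.09 without control 154 to 0.65 without control 193, and was 0.54 with library size alone. Angptl8 against 14 lipogenic genes gave r = -0.24 and rho = -0.24 (exact permutation p = 0.552 and 0.578, adjusted p = 0.644 and 0.660), and -0.23 without mice 154 and 193. A p above the threshold does not show that these genes vary apart.

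**Figure D4:**
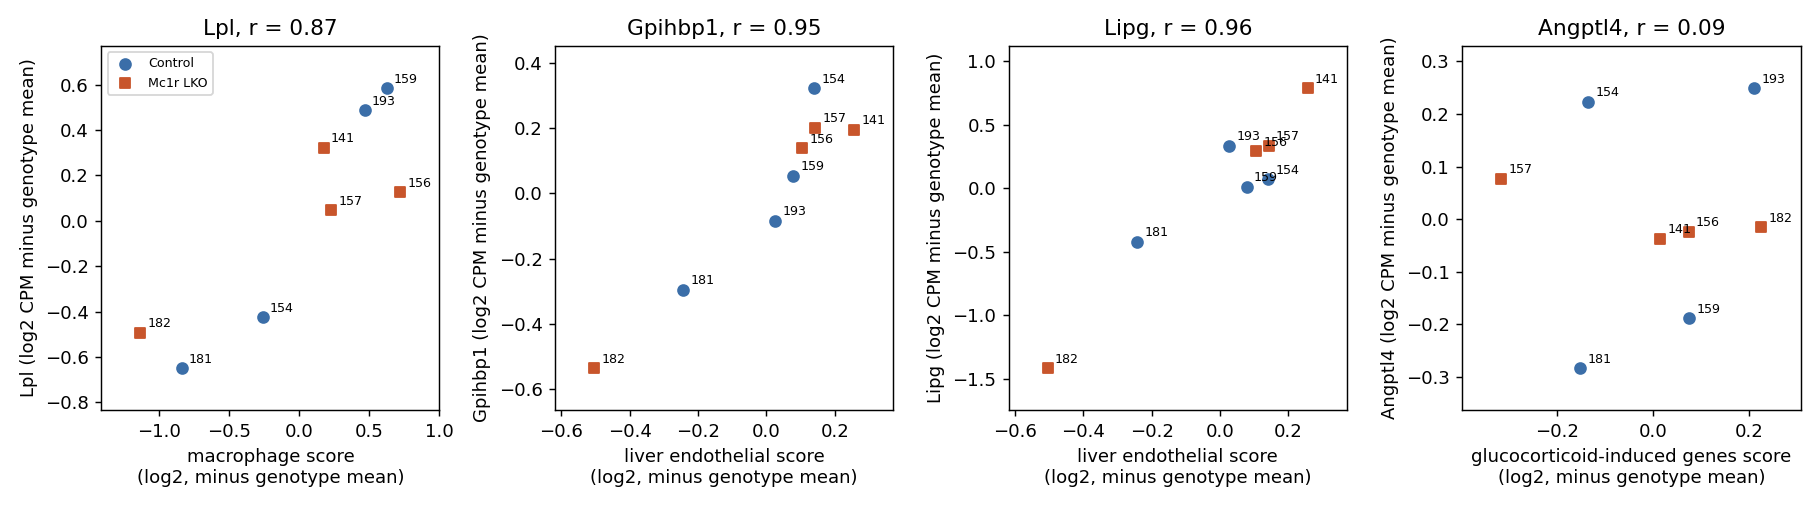
Genotype-centred log2 CPM of Lpl, Gpihbp1, Lipg and Angptl4 (vertical axes) against the centred mean of a marker or target list (horizontal axes, log2) in 8 mice, labelled by number, with circles for Control and squares for Mc1r LKO. Mice 181 and 182 lie at the low end of the first 3 panels (r = 0.87, 0.95 and 0.96), and r is 0.09 for Angptl4 with the glucocorticoid-induced genes.

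Between genotypes the 7 marker sums were compared by a two-sided exact permutation test, in which 4 against 4 mice allow no p below 0.0286, or 0.2 for 1 sum alone after adjustment over 7, so a p above the threshold says little here. The macrophage sum of 10 markers, 9 of them lower in Mc1r LKO, ranged from 311 to 724 CPM in controls and from 214 to 486 CPM in knockouts. The endothelial sum of 8 markers, 7 of them lower, ranged from 203 to 255 CPM and from 153 to 246 CPM. The adipocyte sum of 7 markers ranged from 70.0 to 159 CPM in controls and from 27.9 to 71.4 CPM in knockouts. Control 159 alone set the top of the control range, and the next control had 89.8 CPM. Nearly all of the sum came from Cidea (means of 47.5 CPM in controls and 14.3 in knockouts), Cfd (27.2 and 19.0) and Fabp4 (23.7 and 23.7). The defining adipocyte transcripts were at or near 0, so the sum is not a measure of adipocytes. The smallest of the 7 exact permutation p-values was 0.0571 (adjusted p = 0.400), for the adipocyte sum. The part of these marker levels in the genotype values of Lpl, Lipg and Gpihbp1 was not tested.

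All 28 pairs of the 8 genes were also compared within genotype, a choice made after the values were seen. None of the 28 passed after adjustment (smallest exact permutation adjusted p = 0.257). The pair of largest size was Lipc with Gpihbp1 (r = -0.95, rho = -0.86, exact permutation p = 0.0191 and 0.0365, adjusted p = 0.257 and 0.510), with r = -0.94 without mice 182 and 193.

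For each gene, the 3 of 13399 other genes whose centred values were most like it over the 8 mice were found by Pearson r, as a description. Angptl4 was nearest to Pigf (r = 0.98), Dcbld1 (0.98) and Gm7353 (0.98), and Angptl8 to Slc25a51 (0.99), Atg4b (0.99) and Mmp19 (0.99). Angptl6 was nearest to Ces1g (0.98), Crip1 (0.97) and Ikzf1 (0.97). Lpl was nearest to Myo1f (1.00), Slc23a2 (0.99) and Sh3bp2 (0.99). Lipc was nearest to Phf8 (0.99), Dcaf11 (0.99) and Igfals (0.99), and Lipg to Spp1 (1.00), Aga (0.99) and 5330417C22Rik (0.99). Lmf1 was nearest to Cbx2 (0.99), Casp2 (0.97) and Pde5a (0.96), and Gpihbp1 to Slco3a1 (0.99), Lrrc14b (0.99) and Acot2 (0.99). The values were the highest of a search and carry no test.

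Other genes of the pathway were taken from lists by function. Angptl2 had 15.8 ± 3.24 CPM in controls and 17.4 ± 3.18 CPM in Mc1r LKO (n = 4 each), with a log2 fold change of 0.13 ± 0.17 (SE, edgeR adjusted p = 0.923). Angptl1 and Angptl7 had at most 12 counts in a library and were not tested.

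Over all genes tested, 2.64% were higher and 2.66% lower past the unadjusted threshold. Of 9 apolipoproteins and assembly genes of triglyceride-rich particles, 1 was higher past the unadjusted threshold and 0 were lower (median log2 fold change 0.10). It was Apoc4, an apolipoprotein of these particles, with 640 ± 70.2 CPM in controls and 781 ± 55.4 CPM in knockouts (log2 fold change 0.29 ± 0.10 SE, edgeR adjusted p = 0.734), and it missed the unadjusted threshold without control 154 (0.25), knockout 141 (0.25) or knockout 156 (0.27) and with library size alone (0.25). None of 9 folding and cleavage genes (median 0.00), 13 remnant and fatty acid uptake genes (median -0.06) or 12 hypoxia-induced genes (median 0.01) passed, and none of 14 lipogenic genes did (median -0.12). Pla1a, the 1 gene tested of 6 other lipases of the family, had a log2 fold change of -0.02.

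Among 17 transcriptional regulators of these genes, 1 passed the unadjusted threshold, higher, and 0 lower (median 0.04), beside 2.64% and 2.66% of all genes tested. This was Foxo1, a fasting-activated transcription factor, with 33.2 ± 3.02 CPM in controls and 45.5 ± 7.19 CPM in knockouts, ranges of 30.6 to 37.1 and 41.4 to 56.3 that did not overlap (log2 fold change 0.45 ± 0.12 SE, edgeR adjusted p = 0.734). Ppara, the fatty acid receptor that induces Angptl4, had -0.27 ± 0.19 (SE, edgeR adjusted p = 0.856), and Nr3c1, the glucocorticoid receptor, -0.18 ± 0.16 (SE, edgeR adjusted p = 0.882). Ppara and Nr3c1 were picked once their values had been seen. The 17 log2 fold changes, 11 positive and 6 negative, ran from -0.27 to 0.48. Whether any regulator acts on Angptl4 here was not tested.

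Angptl4 belongs to the known targets of PPAR-alpha and of the glucocorticoid receptor. Over all genes tested, 2.64% were higher and 2.66% lower past the unadjusted threshold, and 4.16% did not overlap in either direction. Of 18 other PPAR-alpha targets, 2 were higher and 0 lower past the unadjusted threshold, with a median of 0.00. Acot1, an acyl-CoA thioesterase, had 15.8 ± 2.80 CPM in controls and 24.0 ± 1.98 CPM in knockouts (log2 fold change 0.60 ± 0.13 SE, edgeR adjusted p = 0.734), without overlap. Cyp4a14, a fatty acid hydroxylase, had a log2 fold change of 0.88 ± 0.36 (SE, edgeR adjusted p = 0.734), with ranges of 180 to 584 and 325 to 757 CPM that overlapped. Cyp4a14 missed the unadjusted threshold with DESeq2 (0.88) and when any 1 mouse other than 154 and 182 was left out (0.69 to 0.84). Of 16 glucocorticoid-induced genes, 9 were higher and 0 lower past the unadjusted threshold (median 0.79), and 5 did not overlap. Several genes of that list, among them Mt1, Mt2, Fkbp5 and Pfkfb3, had already been singled out on these livers. Its count and median are therefore not independent evidence of a direction. The 4 smallest p-values in it belonged to Fkbp5 (log2 fold change 1.09 ± 0.13 SE, edgeR adjusted p = 0.118), Cebpd (0.82 ± 0.13), Pfkfb3 (0.90 ± 0.15) and Mt1 (2.41 ± 0.56). Without mouse 182 the log2 fold change of Mt1 was 1.51.

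**Figure D5:**
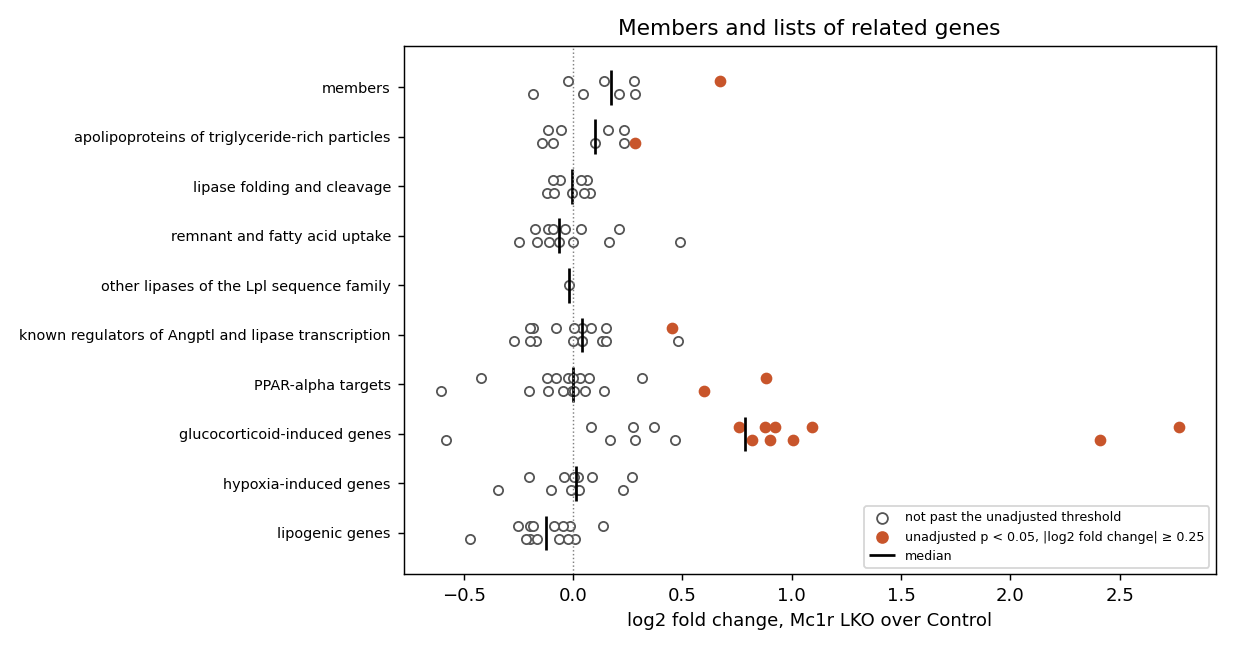
Log2 fold change of Mc1r LKO over Control (horizontal axis) for the 8 genes (top row) and 9 lists of related genes, with filled points for genes past the unadjusted threshold and a line at the median. Angptl4 is the filled point of the top row at 0.67, and the glucocorticoid-induced list has the highest median, 0.79. Several genes of that list had already been singled out on these livers, so its median is not independent evidence of a direction.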

How the data were processed

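Illumina libraries from 8 livers were trimmed (Trim Galore 0.6.6), aligned (STAR 2.7.6a) and assigned to Ensembl genes of GRCm38 by the authors with featureCounts of Subread 2.0.1, as reversely stranded pairs. Raw counts were deposited per mouse, with gene lengths. The genome build named in the study's methods is a human one, whereas the file headers give GRCm38.

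Genes were filtered with filterByExpr (minimum count 10), scaled by TMM and fitted with the quasi-likelihood test of edgeR 4.0.16 in R 4.3.3, with Benjamini-Hochberg adjustment over 13400 genes. Log2 CPM used a prior count of 2. The procedure was tested on simulated data. DESeq2 1.42.0, limma-voom (limma 3.58.1), other scalings and filters, and leaving out each mouse were alternatives. Relations used exact permutation over all 576 arrangements within genotype, and marker sums used the exact permutation test of scipy 1.17.1. Counting depth limits only counting error. Replicates are different mice without shared numbers.

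Named were the 8 genes, other Angptl genes, up to 4 genes per list past the unadjusted threshold by p, and 3 most similar genes for each of the 8. Pla1a, Ppara and Nr3c1 fall outside that rule and were picked once their values had been seen. A result under this rule is not reported here. The genes and lists were chosen with earlier results of these data known. Promoter windows from RefSeq covered Angptl6, Angptl8, Lipc and Lmf1, and their motifs were chosen after the values were seen. Angptl4, Lpl, Lipg and Gpihbp1 are not shown.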

Additional observations from a re-analysis of the deposited data

Results flagged for a closer look

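In 30 groups checked, 3 had a mouse far from the others by the ratio of the gap to the range (Dixon's ratio). In each it was mouse 182 of the Mc1r LKO group, set against the other 3 knockouts. Chance gives about 1.5 over all 30 groups for any mouse, which is not a figure for mouse 182 alone. Lipc was 166 CPM in it against 96.9 to 103 CPM. Gpihbp1 was 14.2 CPM against 22.7 to 23.8 CPM. The lymphocyte marker sum was 1.26 CPM against 2.34 to 2.44 CPM. Only 1 of its 6 markers passed the filter on low counts, and 3 counts in library 182 made 0.14 CPM, so this sum lay near the counting floor.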

How the results depend on the processing

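The number of genes past an adjusted p of 0.05 was 0 with edgeR, 17 with DESeq2, among them Angptl4 of the 8 genes, and 1 with no filter on low counts. Angptl4 was chosen with these differences known, so nothing is read from its call. The unadjusted count of 711 became 1140 with no filter. Leaving out 1 mouse gave log2 differences between neighbouring genes per kilobase of 1.86 to 2.01 for Angptl4 over Angptl6, 0.34 to 0.48 for Angptl6 over Gpihbp1 and 0.98 to 1.195 for Gpihbp1 over Lipg, with adjusted p of 0.0547 to 0.0729 where they no longer passed, fewer mice allowing only larger p-values. The uncalled difference of Lmf1 over Lpl (up to 0.169) turned to -7.9e-04 without control 181, that of Lipg over Lmf1 (up to 0.298) to -0.022 without knockout 141, and that of Angptl8 over Angptl4 to -0.055 in Mc1r LKO mice alone.

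Leaving out 1 mouse gave r of 0.82 to 0.93 for Lpl with macrophage markers, 0.67 to 0.81 for Lpl with adipocyte markers, 0.87 to 0.99 for Gpihbp1 and 0.79 to 0.98 for Lipg with endothelial markers. For Angptl4 it gave -0.09 to 0.65 with PPAR-alpha targets and -0.29 to 0.33 with glucocorticoid-induced genes. Spearman rho was 0.79, 0.67 and 0.83 for Lpl with macrophage, Lpl with adipocyte and Lipg with endothelial markers, and these no longer passed. Without the 2 mice farthest from the median, r was 0.77 for Lpl with macrophage markers, 0.65 for Gpihbp1, 0.46 for Lipg and -0.39 for Angptl4 with PPAR-alpha targets. The cause was not tested. Depth limits these genes little, since the lowest count of the 8 genes was 127. No paired analysis was possible because the genotypes share no replicate numbers.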
